A study of Homo sapiens with 32 samples.

Results

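SDHAF1, WDR6, ATXN7L3B, C14orf132, SMIM10, TSPYL4 and CHML are 7 of the 60662 gene IDs counted in polyadenylated RNA of HEK293T cells, an established human embryonic kidney line. They were picked from these same libraries because their RNA was strongly lowered by STM2457, an inhibitor of the m6A methyltransferase METTL3, and because for most of them the lower level was also seen with YTHDF2 siRNA or with emetine. Their STM2457 values below are therefore a description and carry no test. All 7 passed the low-count filter in each of the 3 experiments. The working description of the set, lowered in every arm, held for 6 of the 7: CHML was higher, not lower, after 9 h of STM2457.

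Each of the 32 libraries was 1 sample. In the knockdown experiment, cells labelled WT received 0.2% DMSO or 20 µM STM2457 for 6 h, and cells transfected with 20 nM YTHDF2 siRNA received the same pair of treatments from 42 h after transfection and were harvested at 48 h, with 3 libraries in each of the 4 groups. The labels do not say whether the WT cells received the non-targeting siRNA that the protocol mentions, so transfection and loss of YTHDF2 cannot be told apart. In the emetine experiment, all cells had 6 h of DMSO or 20 µM STM2457, and 1.8 µM emetine or DMSO was present for the final 2 h, again with 3 libraries in each of 4 groups. The 9 h experiment compared 4 DMSO with 4 STM2457 libraries (20 µM). Since no label states that the replicates came from separate cultures, a p-value here measures the spread between libraries, which may be technical.

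Library totals were 37694945 to 42303951 counts in the knockdown experiment, 22510323 to 34677704 in the 9 h experiment and 21781514 to 28053353 in the emetine experiment. YTHDF2 itself was at 178 ± 3.91 counts per 1000000 (CPM; mean ± SD, n = 3) in WT DMSO cells and at 43.3 ± 1.14 (n = 3) with its siRNA. Without siRNA, STM2457 brought it to 618 ± 36.8 (n = 3), and with siRNA to 76.9 ± 3.28 (n = 3). All 6 HEK293T markers looked for (LIN28B, NEFM, NEFL, PAX2, VIM, CDH2) were present in every library, at a summed 919 to 1610 CPM. The summed markers of fibroblasts were at 14.7 to 25.4 CPM, nearly all of it COL1A1, while COL1A2 was at 0 in 27 libraries. Those of blood cells, hepatocytes and keratinized epithelium stayed at or below 0.558 CPM.

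m6A is a methyl group that METTL3, with METTL14, places on adenosines of mRNA, mostly within a short consensus sequence. It is best known as a mark of unstable mRNA: the reader YTHDF2 binds methylated mRNA and recruits the deadenylase machinery. Exon junction complexes shield the sequence near splice junctions, so methylation is concentrated in long exons and in genes that have few introns. Emetine stops translation elongation on the ribosome.

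The members whose function is given here do different work. SDHAF1 is an assembly factor of succinate dehydrogenase, complex II of the respiratory chain. WDR6 partners the ribose methyltransferase FTSJ1 on tRNA. ATXN7L3B is a cytoplasmic relative of ATXN7L3, an adaptor of the deubiquitinase module of the SAGA coactivator, and competes for the shared subunit ENY2. TSPYL4 belongs to the TSPY-like branch of the nucleosome assembly protein family. CHML is a Rab escort protein, which presents Rab GTPases to the geranylgeranyl transferase, and is the retrogene relative of CHM. SMIM10 is annotated as a small integral membrane protein, and no function is given here for it or for C14orf132.

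Outside expression, most of the 7 genes have few exons. In GENCODE release 29 (GRCh38), taking the longest coding transcript of each gene, 4 of the 7 have a single exon: SDHAF1 (chr19:35995199-35996315, plus strand), ATXN7L3B (chr12:74537827-74545430, plus), SMIM10 (chrX:134990938-134992473, plus) and TSPYL4 (chr6:116249961-116254140, minus). CHML (chr1:241628853-241640254, minus) has 2 exons with its whole coding sequence in 1 of them, C14orf132 (chr14:96039324-96093889, plus) has 3, and WDR6 (chr3:49007062-49015953, plus) has 6. The C14orf132 transcript used has 536 bases, against 7775 bases of annotated exon over its 4 transcripts. Its longest transcript of any kind has 2 exons. The exon count, coding length and sequence matches given for C14orf132 rest on that short transcript. Single-exon genes were 57.1% of the 7 and 2.49% of the 13427 protein coding genes tested at 6 h (335 genes). The coding sequence lay in 1 exon in 5 of the 7 (71.4%), against 5.69% of those genes. ATXN7L3B, TSPYL4 and CHML carry the annotation's retrogene tag, 3 of 7 (42.9%) against 1.07%. These structural classes were noticed after the annotation of the 7 genes had been seen, and no test was made of them. Genes outside the 7 with the same structure are described further on.

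The coding sequences had a median of 345 bases, against 1440 over the protein coding genes tested. Those of SMIM10 (249 bases), ATXN7L3B (291), C14orf132 (342) and SDHAF1 (345) were short, TSPYL4 was nearer the tested median at 1242, and CHML (1968) and WDR6 (3453) lay above it. The annotated exon sequence from the stop codon onward, stop codon included, was long in ATXN7L3B (7027 bases) and CHML (4946 bases) and ran to 696 bases in SDHAF1. The consensus of m6A sites, known as DRACH, has 5 positions: any base but C, a purine, A, C, and any base but G. Searched on the transcript's own strand, with overlapping matches counted, it occurred 2 times in the coding sequence of SDHAF1, 2 times in that of SMIM10 and 5 times in that of ATXN7L3B. TSPYL4 had 19 matches, C14orf132 had 9, CHML had 40 and WDR6 had 52. Per kilobase of coding sequence the median of the 7 genes was 15.3 matches, against 19.7 over the tested genes, with SDHAF1 lowest at 5.80 and C14orf132 highest at 26.3. Counted over the whole transcript the order was the reverse, with a median of 21.0 per kilobase in the 7 genes and 18.8 in the tested genes. The variant GGACT was absent from the coding sequence in SDHAF1, ATXN7L3B, SMIM10 and CHML, 4 of 7 (57.1%), against 24.1% of the tested genes. Over whole transcripts, 6 of the 7 (85.7%) held at least 1 GGACT, against 91.3% of the tested genes, and SMIM10 held none. A match is a stretch of letters: no methylation was measured in these libraries.

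The coding matches are shown for the genes in which they are few, all of them in SDHAF1 and SMIM10 and each GGACT in TSPYL4, C14orf132 and WDR6. Sequences are from GENCODE release 29 transcripts, written 5′ to 3′ along the transcript with GRCh38 coordinates, and capitals mark the 5-base match.
SDHAF1 chr19:35995553-35995593, plus strand: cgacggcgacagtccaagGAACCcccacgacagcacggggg
SDHAF1 chr19:35995582-35995619, plus strand: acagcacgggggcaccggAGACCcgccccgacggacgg
SMIM10 chrX:134991178-134991218, plus strand: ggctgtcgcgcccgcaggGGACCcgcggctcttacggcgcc
SMIM10 chrX:134991263-134991303, plus strand: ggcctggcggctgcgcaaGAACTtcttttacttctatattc
TSPYL4 chr6:116253375-116253415, minus strand: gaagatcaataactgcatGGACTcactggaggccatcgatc
C14orf132 chr14:96086519-96086559, plus strand: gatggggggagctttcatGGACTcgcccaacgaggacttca
C14orf132 chr14:96086534-96086574, plus strand: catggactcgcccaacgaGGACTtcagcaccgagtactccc
WDR6 chr3:49007428-49007468, plus strand: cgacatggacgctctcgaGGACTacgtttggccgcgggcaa
WDR6 chr3:49011648-49011688, plus strand: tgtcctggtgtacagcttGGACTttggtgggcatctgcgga
WDR6 chr3:49011787-49011827, plus strand: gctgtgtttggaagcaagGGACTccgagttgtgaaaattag
WDR6 chr3:49015186-49015226, plus strand: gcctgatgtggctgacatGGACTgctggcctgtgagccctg

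The resting levels of the genes differed widely. Per kilobase of annotated exon, WDR6 was highest in WT DMSO cells, at 33.9 ± 1.64 CPM per kb (mean ± SD, n = 3), followed by ATXN7L3B at 17.4 ± 0.359 and SDHAF1 at 14.3 ± 0.607. SMIM10 (7.59 ± 0.270) and CHML (7.41 ± 0.203) came next and did not differ beyond their spread. TSPYL4 was at 3.85 ± 0.0632 and C14orf132 was lowest at 2.75 ± 0.186 CPM per kb. The length used is that of all annotated exons, so a gene with a long exon that these cells do not use reads too low on this scale.

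Treatment with STM2457 for 6 h brought all 7 genes to between 17.1% and 40.4% of their DMSO level, and no STM2457 library overlapped a DMSO library. The share of all genes without such overlap was not determined, here or in the comparisons below. Overlap or its absence is therefore a description only. SDHAF1 went furthest. Its 3 WT DMSO libraries held 15.9, 16.7 and 15.4 CPM and its STM2457 libraries 2.85, 3.01 and 2.33 CPM, a log2 difference of −2.55 (SE 0.09). In WDR6 the DMSO libraries held 178, 189 and 172 CPM and the STM2457 libraries 46.9, 55.9 and 45.7, a log2 difference of −1.86 (SE 0.07). In both genes the treated libraries lay far below the lowest control.

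ATXN7L3B stood at 135.6, 131.6 and 130.3 CPM in DMSO and at 34.6, 36.1 and 29.5 CPM in STM2457, a log2 difference of −1.99 (SE 0.07). C14orf132 stood at 20.1, 21.2 and 22.9 CPM and at 6.57, 5.12 and 5.18 CPM (−1.93, SE 0.10). SMIM10 stood at 11.73, 12.03 and 11.21 CPM and at 3.41, 3.63 and 2.64 CPM (−1.85, SE 0.13). In each of the 7 genes except C14orf132 STM2457 replicate 3 was the lowest of its group. CHML held 56.7, 55.2 and 58.4 CPM in DMSO and 17.96, 19.24 and 13.74 CPM in STM2457 (−1.74, SE 0.10). TSPYL4 moved least, from 15.9, 16.1 and 16.4 CPM to 6.98, 6.62 and 5.92 CPM (−1.31, SE 0.07). Ordered from the most lowered of 16662 genes tested, SDHAF1 was at place 22 and TSPYL4 at place 300, and the median log2 change of all genes was −0.02. Among all genes tested, 3.02% passed edgeR's quasi-likelihood test at a Benjamini-Hochberg adjusted p under 0.05 and were lower by 2-fold or more, as were all 7 here; since these values chose the genes, nothing is read from that count.

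**Figure D1:**
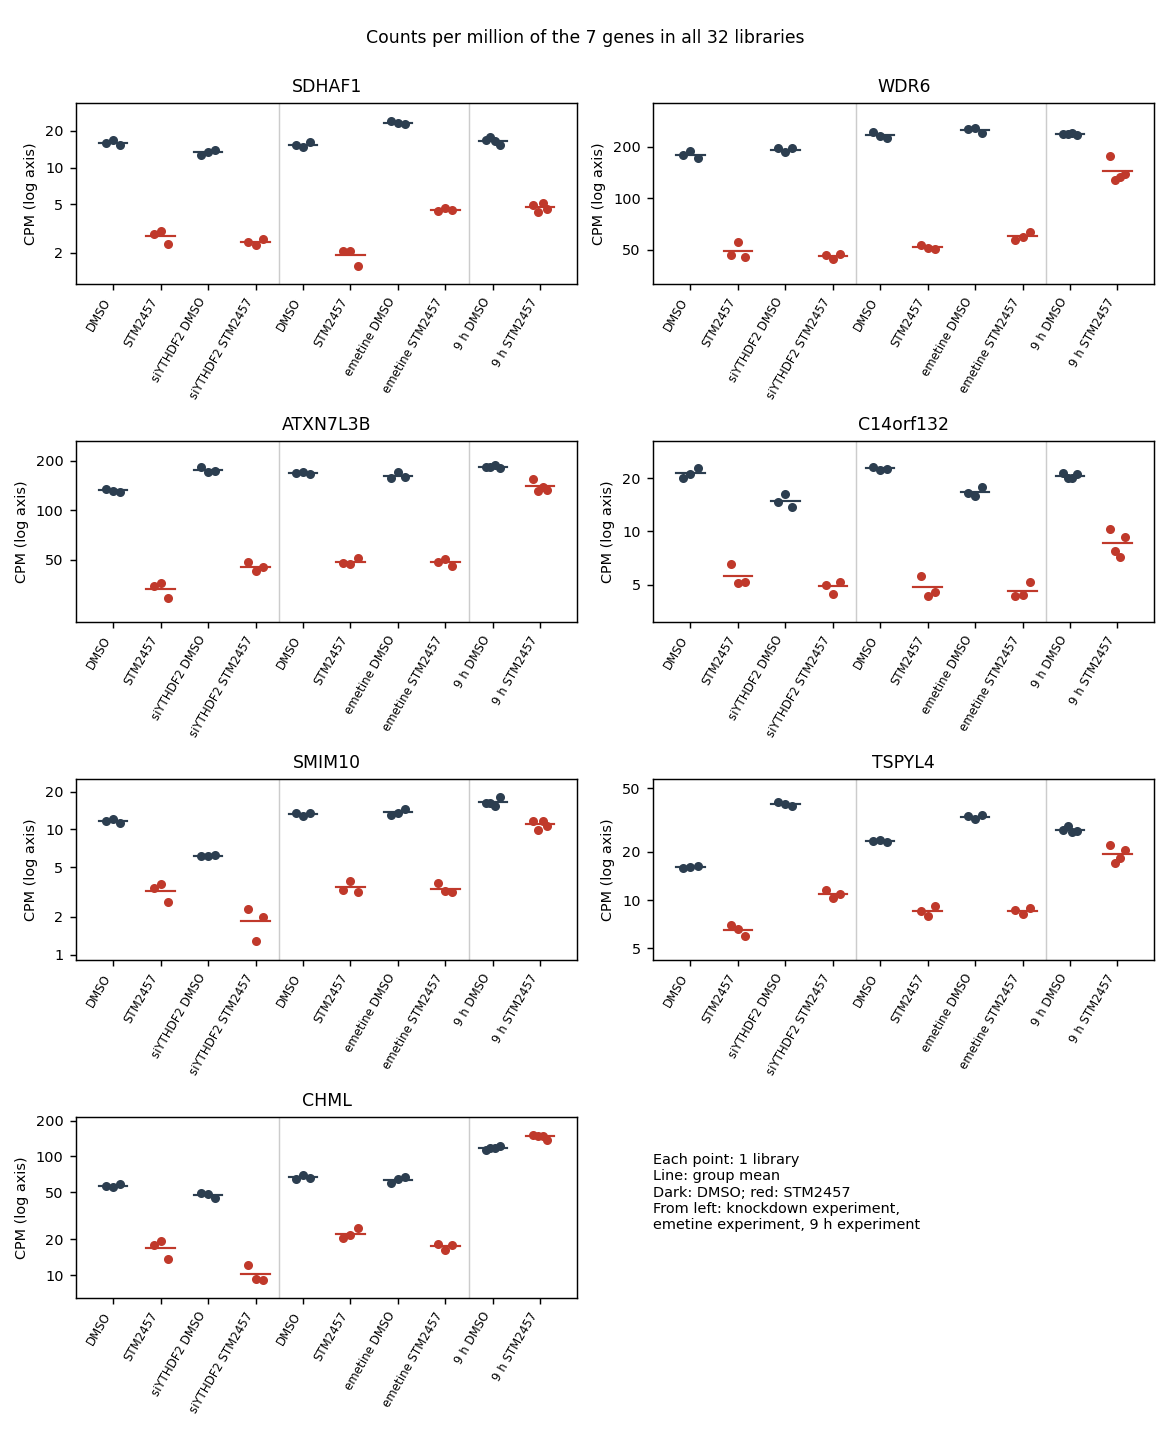
CPM (log axis) of each gene in all 32 libraries, 1 point per library and a line at each group mean, with DMSO dark and STM2457 red. In every 6 h pair the red points lie below the dark ones, and at 9 h the CHML red points (138 to 153 CPM) lie above the dark ones (114 to 121 CPM).

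The emetine experiment held a separate 6 h comparison without emetine, in other libraries. SDHAF1 was at 15.3, 14.8 and 16.2 CPM in DMSO and at 2.07, 2.08 and 1.55 CPM in STM2457, a log2 difference of −3.02 (SE 0.11). C14orf132 (−2.24, SE 0.09) and WDR6 (−2.17, SE 0.04) came next, then SMIM10 (−1.94, SE 0.10), ATXN7L3B (−1.79, SE 0.04), CHML (−1.57, SE 0.06) and TSPYL4 (−1.45, SE 0.07). SDHAF1 was the most lowered and TSPYL4 the least lowered of the 7 in both experiments, while ATXN7L3B and CHML were somewhat less lowered here and the other 5 somewhat more. The comparison served in picking the genes and adds no independent support. Over all genes, 2.88% were called lower by 2-fold or more.

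With YTHDF2 siRNA, STM2457 left all 7 genes at 18.3% to 32.8% of the matching DMSO level, again with no overlap between groups, with 3.03% of all genes called lower by 2-fold or more. SDHAF1 was at 12.7, 13.4 and 13.9 CPM with siRNA and DMSO and at 2.43, 2.29 and 2.61 CPM with siRNA and STM2457 (log2 −2.45, SE 0.09), close to the −2.55 seen without siRNA. The difference between both STM2457 effects, with siRNA minus without, was 0.10 (SE 0.14) for SDHAF1, 0.03 (SE 0.09) for ATXN7L3B and 0.13 (SE 0.20) for SMIM10 on the log2 scale. WDR6 was lowered somewhat more with siRNA (difference −0.20, SE 0.09) and C14orf132 somewhat less (0.32, SE 0.14).

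TSPYL4 and CHML were lowered further in the cells given YTHDF2 siRNA. TSPYL4 held 40.8, 40.2 and 39.1 CPM with siRNA and DMSO and 11.5, 10.3 and 10.9 CPM with siRNA and STM2457, a log2 effect of −1.88 (SE 0.06) that exceeded the effect without siRNA by −0.57 (SE 0.10). CHML held 48.8, 48.6 and 44.3 CPM and 12.3, 9.30 and 9.07 CPM, an effect of −2.21 (SE 0.11) that exceeded the one without siRNA by −0.47 (SE 0.15). In the whole table, differences past the threshold in this direction made up 6.93% of genes. They were more frequent in the structural classes of these 2 genes. Without the 7, they made up 28.7% of single-exon genes (95 of 331, with 1 the other way). Among retrogenes they made up 32.6% (46 of 141, with 0 the other way). The difference was part of what chose the genes and was not tested for them.

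YTHDF2 siRNA by itself, compared within DMSO, was not used to pick the genes and was tested. Both of its groups, however, are the controls of STM2457 comparisons that chose the genes, so the test is not independent of that choice. The genes did not move together. By edgeR's quasi-likelihood test with adjustment over all 16662 genes, 2 of the 7 were higher and 4 lower, where 33.1% of all genes were called higher and 29.3% lower. The counts of the 7 thus lie in a range in which most genes were called one way or the other.

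TSPYL4 rose 2.49 times on average with the siRNA, from 15.9 to 16.4 CPM up to 39.1 to 40.8 CPM (log2 1.31, SE 0.06, adjusted p = 2.91e-12). ATXN7L3B rose from 130 to 136 CPM up to 173 to 184 CPM (0.42, SE 0.06, adjusted p = 1.16e-05). In both genes every siRNA library was above every WT library. Scaled to the ERCC spike-in RNAs, the rise of ATXN7L3B missed the threshold (0.44, adjusted p = 0.0688), while that of TSPYL4 held.

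SMIM10 fell from 11.21 to 12.03 CPM down to 6.09 to 6.20 CPM (−0.93, SE 0.12, adjusted p = 1.33e-06). C14orf132 fell from 20.1 to 22.9 CPM down to 13.7 to 16.2 CPM (−0.52, SE 0.09, adjusted p = 3.26e-05). The falls of SDHAF1 (−0.26, SE 0.07, adjusted p = 0.00481) and CHML (−0.27, SE 0.09, adjusted p = 0.0199) were small, although their groups did not overlap. With scaling to ribosomal protein genes both missed the threshold (adjusted p = 0.11 and 0.219), although each stayed at −0.25. With spike-in scaling they also missed it (0.423 and 0.379), at −0.24 each. CHML missed it as well without replicate 3 of the siRNA DMSO group (−0.23, 0.076), and C14orf132 with spike-in scaling alone (−0.50, 0.0554). WDR6 was at 172 to 189 CPM without and 185 to 196 CPM with siRNA, groups that overlapped (0.10, SE 0.06, adjusted p = 0.181).

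Within STM2457, where 59.9% of all genes were called with siRNA in either direction, the siRNA and no-siRNA groups overlapped for SDHAF1, WDR6 and C14orf132. TSPYL4 (log2 0.74, SE 0.07) and ATXN7L3B (0.44, SE 0.07) were higher with siRNA there too, and SMIM10 (−0.80, SE 0.16) and CHML (−0.73, SE 0.11) lower. The siRNA difference of TSPYL4 was thus 1.31 in DMSO and 0.74 in STM2457, and that of CHML −0.27 and −0.73.

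**Figure D2:**
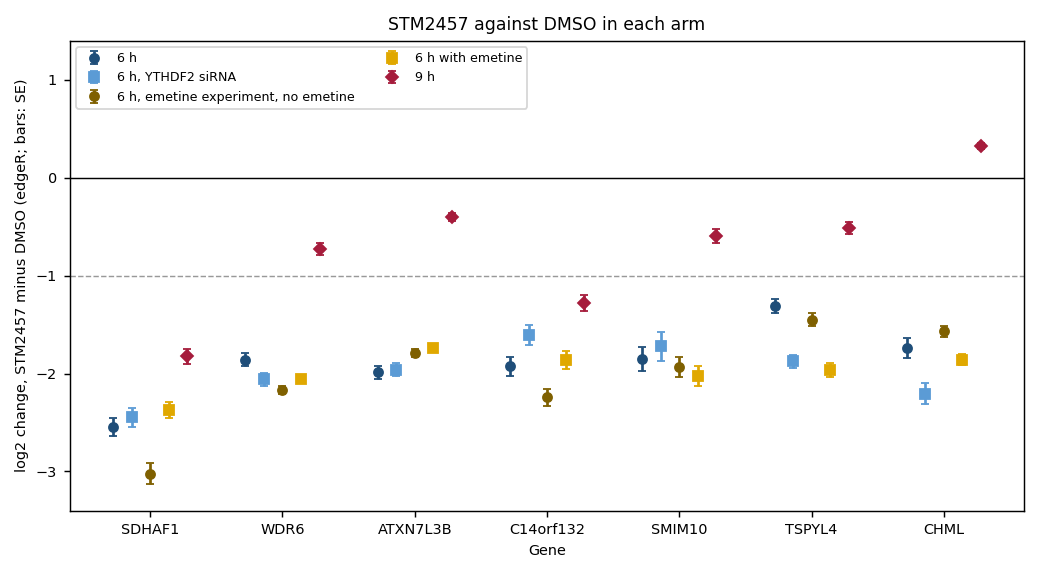
log2 change of each gene with STM2457 against DMSO in 5 pairs of groups (edgeR estimates, bars are SE, the dashed line marks a 2-fold fall). All 6 h points of every gene lie below the dashed line, and at 9 h only SDHAF1 and C14orf132 do, with CHML above 0 at 0.32.

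With emetine present for the final 2 h, STM2457 left the 7 genes at 19.3% to 29.9% of the emetine and DMSO level, and no groups overlapped, with 3.17% of all genes called lower by 2-fold or more. The spread among genes was narrow, from −1.74 (SE 0.04) for ATXN7L3B to −2.37 (SE 0.08) for SDHAF1 on the log2 scale. Compared with the effect without emetine, ATXN7L3B (difference 0.05, SE 0.06), SMIM10 (−0.09, SE 0.15) and WDR6 (0.11, SE 0.06) changed little. SDHAF1 was lowered less with emetine than without it (0.65, SE 0.15), and so was C14orf132 (0.38, SE 0.14). TSPYL4 (−0.52, SE 0.10) and CHML (−0.29, SE 0.09) were lowered more, and the corresponding siRNA differences of these genes were −0.57 and −0.47. Over all genes, 6.71% passed the threshold upward and 11.1% downward in this difference, which was also used in the choice of the 7. Of the other single-exon genes 2.82% passed upward and 25.7% downward, and of the other retrogenes 2.27% and 34.8%.

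Emetine alone, compared within DMSO, was not part of the choice. Here too both groups, with and without emetine, are the controls of STM2457 comparisons that chose the genes, so the test is not independent of that choice. In edgeR's test adjusted over 15817 genes, 3 of the 7 were higher and 1 lower, against 33.9% and 28.3% of all genes. SDHAF1 rose from 15.3, 14.8 and 16.2 CPM to 24.2, 23.3 and 22.8 CPM (log2 0.60, SE 0.07, adjusted p = 1.16e-09). TSPYL4 rose from 23.3, 23.8 and 23.0 CPM to 33.6, 32.3 and 34.1 CPM (0.51, SE 0.06, adjusted p = 9.88e-10). C14orf132 fell from 23.2, 22.4 and 22.6 CPM to 16.4, 15.8 and 17.8 CPM (−0.44, SE 0.07, adjusted p = 1.08e-06). In these 3 genes the groups did not overlap.

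WDR6 passed the threshold with a small rise (0.10, SE 0.04, adjusted p = 0.0153) although its groups overlapped, and the call was lost on leaving out replicate 2 (adjusted p = 0.17) or 3 (0.215) of the controls or replicate 1 (0.0525) or 2 (0.0887) of the emetine group. ATXN7L3B (−0.06, SE 0.04, adjusted p = 0.195), SMIM10 (0.06, SE 0.08, 0.555) and CHML (−0.07, SE 0.05, 0.233) did not pass, with overlapping groups; ATXN7L3B passed when replicate 3 of the controls was left out (−0.09, adjusted p = 0.0428). These signs are relative to the bulk of the transcriptome. Scaling to ribosomal protein genes or to spike-ins raised the median of all genes by 0.44 or 0.49. Under either one 6 of the 7 were called higher, none lower and C14orf132 neither. Most genes were called higher there too, 11485 and 11558 of 15817, so nothing is read from that count. The rises of SDHAF1 and TSPYL4 held under each scaling.

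Within STM2457, SDHAF1 was at 2.07, 2.08 and 1.55 CPM without emetine and at 4.43, 4.62 and 4.47 CPM with it, 2.38 times higher (log2 1.25, SE 0.14). TSPYL4 was at 8.55, 7.93 and 9.16 CPM without and 8.62, 8.14 and 8.89 CPM with emetine (0.00, SE 0.08). CHML was at −0.36 (SE 0.07) with emetine there and WDR6 at 0.21 (SE 0.05). These values too are relative to the bulk of the transcriptome: the median of all genes was 0.00 with TMM, 0.50 with ribosomal protein scaling and 0.54 with spike-ins. TSPYL4 was then at 0.50 and 0.53, CHML at 0.14 and 0.18, and SDHAF1 at 1.75 and 1.78, so SDHAF1 stood above the bulk and CHML below it under each scaling. For ATXN7L3B, C14orf132, SMIM10 and TSPYL4 the 2 groups overlapped, in a comparison in which 59.8% of all genes were called in either direction.

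**Figure D3:**
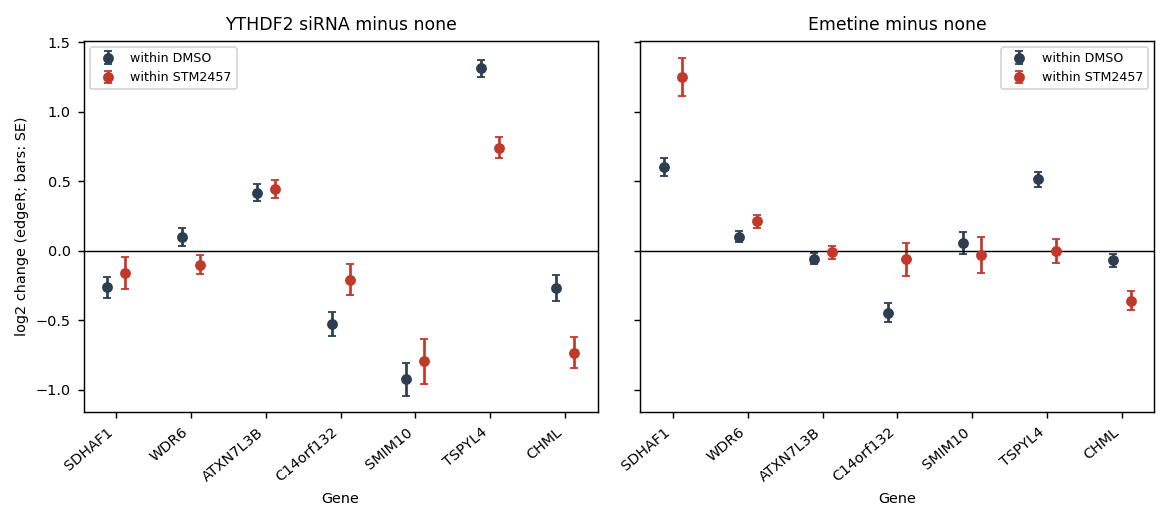
log2 change of each gene with YTHDF2 siRNA against none (left) and with emetine against none (right), within DMSO (dark) and within STM2457 (red), as edgeR estimates with SE bars. TSPYL4 stands highest with siRNA (1.31 in DMSO, 0.74 in STM2457) and SDHAF1 with emetine (0.60 and 1.25).

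At 9 h the picture was weaker and less uniform. SDHAF1 was at 16.9, 17.7, 16.7 and 15.3 CPM in DMSO and at 4.89, 4.27, 5.13 and 4.60 CPM in STM2457 (log2 −1.82, SE 0.08), and C14orf132 at 21.5, 20.2, 20.1 and 21.0 against 10.3, 7.79, 7.14 and 9.34 CPM (−1.28, SE 0.08). These 2 genes were the ones lowered by 2-fold or more, as were 1.06% of all genes, and no groups overlapped.

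WDR6 was at 237, 239, 241 and 235 CPM in DMSO and at 176, 128, 134 and 138 CPM in STM2457 (−0.73, SE 0.06), with the first treated library standing above the other 3. SMIM10 (−0.60, SE 0.07), TSPYL4 (−0.52, SE 0.06) and ATXN7L3B (−0.40, SE 0.04) were lower by less than 2-fold. In ATXN7L3B the first treated library, at 156 CPM, was again the highest of its 4, and the DMSO libraries lay at 181 to 189 CPM. Scaled to ribosomal protein genes, the 9 h values of ATXN7L3B and TSPYL4 shrank to −0.22 and −0.34.

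CHML went the other way at 9 h. Its DMSO libraries held 114, 117, 118 and 121 CPM and its STM2457 libraries 153, 148, 149 and 138 CPM, a log2 difference of 0.32 (SE 0.03). All 4 treated libraries were above all 4 controls, and the value was 0.50 with scaling to ribosomal protein genes and 0.31 to 0.36 with any 1 library left out. A rise at 9 h was common in genes of like structure. Of the other retrogenes, 93 of 134 (69.4%) were called higher (median 0.48), against 32.2% of all genes. Of other genes with the coding sequence in 1 exon, 488 of 738 (66.1%) were (median 0.44). The control level of CHML also differed between experiments, at 118 ± 2.96 CPM (SD, n = 4) in the 9 h DMSO libraries and 56.8 ± 1.56 (n = 3) and 66.7 ± 2.80 (n = 3) in the DMSO libraries of the 6 h experiments. Hours of treatment and experiment differed together here and cannot be told apart.

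The 9 h effect minus the 6 h effect, from a joint fit of 20 libraries without siRNA or emetine, was 2.03 (SE 0.09) for CHML, 1.56 (SE 0.08) for ATXN7L3B, 1.22 (SE 0.12) for SMIM10 and 1.10 (SE 0.10) for WDR6. It was 0.76 (SE 0.10) for TSPYL4, 0.69 (SE 0.13) for SDHAF1 and 0.61 (SE 0.13) for C14orf132. All 7 lay above 0, and 13.8% of all genes were called higher in this difference. Its 6 h part was used to choose the genes, so nothing is read from the direction and no test was made.

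None of the partners and relatives named here was lower by 2-fold or more in WT cells at 6 h with TMM scaling. SMIM10L1, SMIM10L2B and METTL1 were under both other scalings. With YTHDF2 siRNA and TMM scaling, STM2457 lowered METTL1 (log2 −1.42), SMIM10L1 (−1.22) and SMIM10L2B (−1.16) by more than 2-fold, against 3.03% of all genes. In the emetine experiment 1 SMIM10 relative was so lowered without emetine (2.88% of all genes). With emetine 1 SMIM10 relative, 1 tRNA modification gene and 1 SAGA module gene were (3.17%). At 6 h without siRNA, edgeR called 22.9% of all genes higher and 22.1% lower. Many calls turn on the scaling, since the median change of all genes was −0.02 with TMM, −0.28 with ribosomal protein scaling and −0.39 with spike-ins. Values below are with TMM unless another scaling is named. SMIM10L1 (log2 −0.75, SE 0.07, adjusted p = 8.93e-08), SMIM10L2A (−0.55, SE 0.10, 0.000244) and SMIM10L2B (−0.81, SE 0.10, 4.19e-06) fell, 3 of 3, under each of the scalings. Their changes were smaller than that of SMIM10. SMIM10 shares 1 of its 1487 words of 50 bases with SMIM10L2A and SMIM10L2B, so few reads could be exchanged between them.

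Of 7 other succinate dehydrogenase subunits and assembly factors, 2 were higher (SDHD 0.27, SDHAF3 0.41) and 1 lower (SDHAF4 −0.40), with a median of 0.11. With ribosomal protein scaling none was higher and 4 were lower (median −0.16): SDHAF4 and the subunits SDHA (−0.30, adjusted p = 0.0282), SDHB (−0.31, 0.000924) and SDHC (−0.16, 0.0263). With spike-ins none was higher and 1 lower. Of 11 tRNA modification genes, 6 were higher and 2 lower (median 0.15) with TMM, 1 higher and 3 lower (median −0.12) with ribosomal protein scaling, and none higher and 3 lower (median −0.21) with spike-ins. TRMT5, a tRNA methyltransferase, rose (0.78, SE 0.06, adjusted p = 4e-09), METTL1, which methylates tRNA guanosines, fell (−0.83, SE 0.09, 8e-07), and FTSJ1, the catalytic partner of WDR6, fell slightly (−0.27, SE 0.05, 0.000537). The signs of TRMT5, METTL1 and FTSJ1 held under each scaling, but TRMT5 missed the threshold with spike-in scaling (adjusted p = 0.0937).

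Of 8 genes of the SAGA deubiquitinase module, 2 were higher and 2 lower (median 0.03), against none and 4 (median −0.23) with ribosomal protein scaling and none and 2 (median −0.34) with spike-ins. ATXN7L3, the relative of ATXN7L3B, was at −0.03 (SE 0.05, adjusted p = 0.616; −0.29, 0.0215, with ribosomal protein scaling), USP22, the deubiquitinase itself, at −0.29 (SE 0.05, 6.07e-05) and USP27X, a related deubiquitinase, at 0.61 (SE 0.10, 9.41e-05). USP27X missed the threshold with ribosomal protein scaling (adjusted p = 0.0734). Among Rab prenylation genes, RABGGTB, a subunit of the transferase, was higher (0.29) and RABGGTA, the other subunit, lower (−0.43), and CHM, the relative of CHML, was at 0.08 (SE 0.07, adjusted p = 0.315; −0.19, 0.0417, with ribosomal protein scaling). RABGGTB was at 0.02 with ribosomal protein scaling and −0.09 with spike-ins. Of the 4 TSPY-like or related genes tested, TSPYL1 (0.51, SE 0.05, adjusted p = 7.41e-08) and NAP1L1 (0.27) were higher and TSPYL2 (−0.39) lower. TSPYL1 kept its sign under each scaling and missed the threshold with spike-ins (adjusted p = 0.524). TSPYL2 was lower under each scaling, while NAP1L1 was at 0.0047 (adjusted p = 0.958) with ribosomal protein scaling and −0.11 (0.664) with spike-ins. The lists were drawn up with results of these data known, and counts of this size are not set against chance.

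TSPYL1 and TSPYL4 parted in both directions. YTHDF2 siRNA lowered TSPYL1 in DMSO (−0.93, SE 0.05, adjusted p = 1.29e-11) from 322 to 169 CPM on average, where TSPYL4 rose by 1.31, and STM2457 at 9 h raised TSPYL1 by 0.80 (SE 0.03, adjusted p = 2.38e-17), where TSPYL4 was at −0.52.

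Of the neighbouring genes on the chromosome, none was lower by 2-fold or more in WT cells at 6 h with TMM scaling. TSPYL4 lies 33 bp from DSE, which was higher at 6 h (0.36, SE 0.08, adjusted p = 0.000151), and 464 bp from NT5DC1, which was slightly lower (−0.17, SE 0.06, 0.029); with ribosomal protein scaling DSE was at 0.12 (adjusted p = 0.429) and NT5DC1 at −0.43 (0.000262), and with spike-ins DSE was at 0.00. OPN3 overlaps CHML on the same strand and was higher (0.70, SE 0.11, adjusted p = 2.04e-05), from 4.18 to 6.81 CPM on average, while CHML was lower; 4.37% of the 50-base words of CHML occur in OPN3 or other genes. The sign of OPN3 held under each scaling, with an adjusted p of 0.246 with spike-ins. DALRD3 overlaps WDR6 on the opposite strand, where 9.58% of the words of WDR6 lie, and was at −0.25 (SE 0.10, adjusted p = 0.0536). P4HTM, which overlaps WDR6 on the same strand, did not pass the filter, and ARIH2, NDUFAF3 and MOSPD1, the other neighbours of WDR6 and SMIM10, were at −0.01, 0.06 and 0.16 and not called. Around SDHAF1, LRFN3 was at 0.25 (adjusted p = 0.00673) and ALKBH6 at −0.30 (0.0557). With ribosomal protein scaling ARIH2 (−0.27, adjusted p = 0.0116), DALRD3 (−0.50, 0.0183) and ALKBH6 (−0.56, 0.00724) were called lower and LRFN3 was at 0.00 (0.994). With spike-ins DALRD3 (0.0225) and ALKBH6 (0.0296) were called lower, ARIH2 (0.114) was not, and LRFN3 was at −0.11. RTL8B, the gene nearest to SMIM10 at higher coordinates, 28031 bp away, fell by 0.86 (SE 0.06, adjusted p = 7e-09) and was lower under each scaling, by more than 2-fold with ribosomal protein scaling (−1.11) and spike-ins (−1.21). With TMM scaling it was also lowered by more than 2-fold by STM2457 in YTHDF2 siRNA cells (−1.21). In the emetine experiment RTL8B went from a mean of 40.6 to 20.1 CPM without emetine and from 31.3 to 14.6 CPM with it. C14orf132 has no protein coding neighbour tested within 100 kb. Because the strand setting of the counting is not given in the sources used here, reads of WDR6 and DALRD3, and of ATXN7L3B and the antisense gene AC025257.1 that overlaps it, cannot be assigned with certainty.

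**Figure D4:**
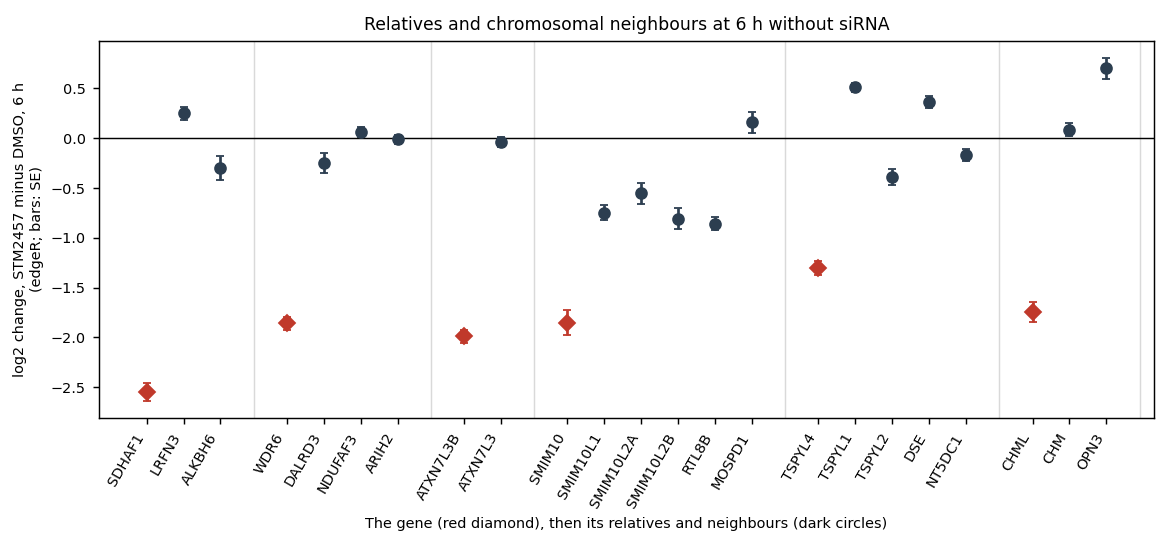
log2 change with STM2457 at 6 h without siRNA (edgeR, bars are SE) of each gene (red diamond) and of its relatives and neighbours (dark circles). The diamonds lie between −2.55 and −1.31, and the lowest circle is RTL8B at −0.86.

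With TMM scaling, and without siRNA or emetine, more single-exon genes were higher than lower with STM2457. Without the 7, 331 single-exon protein coding genes were tested at 6 h, of which 134 (40.5%) were higher and 62 (18.7%) lower, with a median log2 change of 0.21; the 13089 genes with 2 or more exons had a median of −0.01, with 25.6% higher and 22.2% lower. At 9 h, 199 of 321 single-exon genes (62.0%) were higher and 39 lower, with a median of 0.40, against 32.2% higher and 32.5% lower among all genes. Retrogenes at 6 h had 62 of 141 genes higher, 26 lower and a median of 0.24. Falls of 2-fold or more were found in 5.44% of single-exon genes and 0.955% of genes with more exons at 6 h, so the class was wider in both directions.

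With YTHDF2 siRNA, 84 single-exon genes were higher and 92 lower with STM2457 (median −0.01, against 0.01 for genes with 2 or more exons), and with emetine 104 were higher and 89 lower (median −0.02, against 0.03). In both of these comparisons the single-exon median lay below that of genes with more exons, also with ribosomal protein scaling and spike-ins. That order turned on how the class was defined. With TMM, genes with 1 exon in every annotated transcript had medians of 0.02 with siRNA and 0.07 with emetine. Genes with the coding sequence in 1 exon had 0.03 and 0.07, also above the genes with more exons. Retrogenes were at −0.01 and 0.14. How many genes are higher depends on the scaling: at 6 h without siRNA, with ribosomal protein scaling 82 were higher and 86 lower, with a median of −0.05 against −0.27 for genes with more exons, and with spike-ins 43 and 74, with medians of −0.17 and −0.38. In that comparison the single-exon median lay above that of genes with more exons under all 3 scalings. SDHAF1, ATXN7L3B, SMIM10 and TSPYL4 stood at the low end of their own structural class, where the choice of the genes by their falls placed them.

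**Figure D5:**
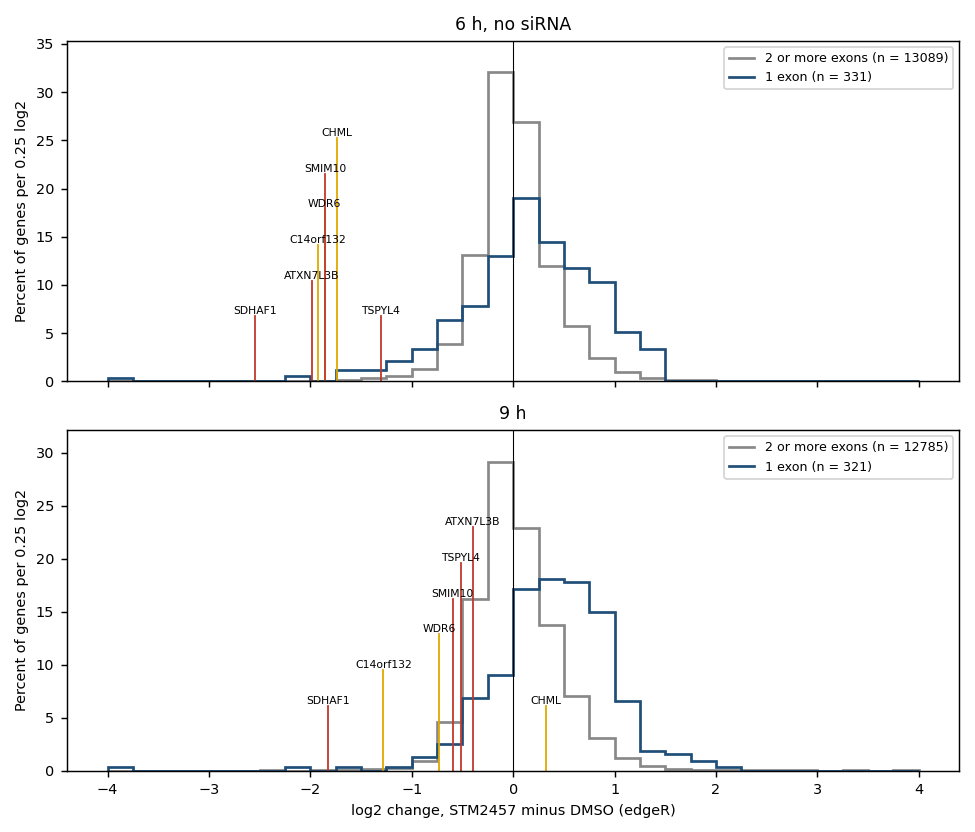
Percent of protein coding genes in each 0.25 log2 step of change with STM2457 at 6 h without siRNA (top) and at 9 h (bottom), for genes with 1 exon (blue) and with 2 or more (grey), the 7 genes left out; the outermost steps also hold values beyond them. Vertical lines mark the 7 genes, red for those with 1 exon and amber for the others, their heights set only for legibility; the median of the 1-exon class is 0.21 at 6 h and 0.40 at 9 h.

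The patterns of the 7 genes over all conditions were compared as profiles of 7 values, the mean log2 CPM of each group minus that of the DMSO reference of its experiment, with the root mean square difference as distance. The nearest pair among the 7 was WDR6 and ATXN7L3B at 0.29, and the most distant was SDHAF1 and TSPYL4 at 1.36. Among 10803 other protein coding genes, the profiles nearest to the median of the 7 were those of TRIM69 (0.30), ENSG00000285053 (0.37), ZNF33B (0.40), GPR63 (0.44) and SFT2D3 (0.46), with 8, 20, 5, 2 and 1 exons. ENSG00000285053 was also the nearest gene to SDHAF1 (0.50), C14orf132 (0.30) and SMIM10 (0.31), ZNF33B the nearest to WDR6 (0.28) and ZNF248 the nearest to TSPYL4 (0.31). CHML was nearest to SMIM10 (0.46). The 7 values share DMSO references and libraries, so the distances describe likeness over these conditions and nothing more.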

How the data were processed

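The deposited values are raw counts of reads per Ensembl gene ID from poly(A)-selected, strand-specific libraries, per the labels' protocols. Per the submitters' processing notes, the authors aligned to GRCh38.p12 with STAR 2.7.3a and counted with featureCounts (Subread 2.0.0), with cutadapt, Trimmomatic, SAMtools 1.9 and FastQC 0.11.8 also named. Which gene annotation and strand setting they counted with is not given in the sources used here.

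The counts were tested with edgeR 4.0.16 in R 4.3.3: TMM scaling, filterByExpr and quasi-likelihood tests, separately for the knockdown (12 libraries), 9 h (8) and emetine (12) experiments, with a joint fit of 20 libraries for 9 h minus 6 h. P-values were Benjamini-Hochberg adjusted over all genes tested. CPM are TMM-scaled. Of 60662 IDs, 60261 had a symbol; the 92 spike-ins, in 24 libraries, were kept apart. Gene structure is from GENCODE release 29. The procedure was checked on simulated counts.

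The members and lists were chosen with earlier results of these data known. Besides the 7 genes, the text names: up to 4 genes of each partner list by smallest p at 6 h, and those of lists of 5 or fewer, of which some are not reported here; overlapping or nearest protein coding genes within 100 kb; the 5 nearest profiles (mean log2 CPM of at least 2) and the nearest to each gene; and YTHDF2. Alternatives were DESeq2 1.42.0, no filter, scaling to ribosomal protein genes or spike-ins, a replicate block and leaving out each library.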

Additional observations from a re-analysis of the deposited data

Results flagged for a closer look

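CHML had opposite STM2457 effects at 6 h and 9 h: all 3 treated libraries lay below their controls at 6 h (log2 −1.74) and all 4 lay above theirs at 9 h (0.32), a difference of 2.03. The difference was not tested, since the 6 h value was used in choosing the gene. At 9 h, 69.4% of the other retrogenes and 32.2% of all genes were called higher. No library stood apart from its group in the 9 h values of any of the 7 genes by Dixon's criterion, the only groups with 4 libraries.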

How the results depend on the processing

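No STM2457 value of the 7 genes changed sign under any alternative run. DESeq2, no low-count filter and the replicate block changed no call of a member. Equal replicate numbers did not pair the libraries throughout. Correlations of same-numbered deviations ran from −0.35 to 0.583 in the knockdown, −0.103 to 0.088 in the 9 h and −0.129 to 0.307 in the emetine experiment. Their medians were 0.092, −0.017 and −0.031, against −0.05, 0.071 and −0.015 for different numbers. Some pairing in the knockdown experiment therefore remains possible. With the replicate block, YTHDF2 siRNA gave 5568 genes higher and 4949 lower and emetine 4480 lower, with 2 and 4 members called for siRNA and 3 and 1 for emetine, as without it.

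Scaling mattered most. With ribosomal protein scaling, genes called lower with STM2457 were 7283 at 6 h (3677 with TMM), 4096 with siRNA, 2350 at 9 h, 6574 without and 4374 with emetine. Under that scaling siRNA by itself gave 2 members lower, and 3952 of all 16662 genes. With spike-ins, siRNA gave 2229 genes lower and 2653 higher, with 1 member each way. For emetine, out of 15817 genes, ribosomal protein scaling gave 406 lower and 11485 higher and spike-ins 227 and 11558. Each gave 6 members higher and 0 lower. The emetine values that changed sign were ATXN7L3B (0.38, adjusted p = 4.05e-08, with ribosomal protein scaling and 0.43, 1.61e-07, with spike-ins), CHML (0.37, 5.62e-06, and 0.42, 1.11e-06) and C14orf132 (0.0435, 0.7, with spike-ins). By construction these scalings move all genes together. Leaving out 1 library gave 1 to 2 members lower with emetine and 2 to 3 higher, and 3 to 4 lower with siRNA. The differences of STM2457 effects near 0 (ATXN7L3B and SMIM10 with siRNA, SMIM10 with emetine) took either sign when single libraries were left out. Taking the longest transcript of any kind left 4 of 7 genes with 1 exon, against 3.67% of tested genes.

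SMIM10 and SDHAF1 had the lowest mean CPM of the 7 genes, so depth limits their STM2457 values most.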
